A study of Saccharomyces cerevisiae with 137 samples.

Results

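The small subunit of the cytosolic ribosome of budding yeast is built from 18S ribosomal RNA and a set of proteins named Rps, each made from the genes called RPS. All open reading frames of the deposited table whose gene symbol is RPS, a number and an optional A or B were taken as members, which gave 56 of 6178 frames. Of these, 48 form 24 pairs of paralogs (an A and a B gene for 1 protein) and 8 are single-copy genes, among them RPS2, RPS3, RPS12, RPS13, RPS15, RPS20 and RPS31. No measured value entered the choice. The values describe messenger RNA, so they say nothing of protein or of assembled ribosomes.

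Cultures of Saccharomyces cerevisiae were moved from 30 °C to 13 °C for 60 min and back to 30 °C, and 137 two-colour arrays compared RNA taken later with RNA taken before the shift (t0) from the same flask. The cold times were 15 min (t15), 30 min (t30) and 60 min (t60). Recovery was sampled 30 min (t90) and then 60 min (t120) after the return to warmth. In all, 6 transcription factor genes were deleted singly in BY4741, which gave delCIN5 (4 flasks, 20 arrays), delGLN3 (5 flasks, 20 arrays), delHAP4 (4 flasks, 18 arrays), delHMO1 (4 flasks, 20 arrays), delSWI4 (4 flasks, 16 arrays, none at t15) and delZAP1 (4 flasks, 20 arrays). Wild type contributed 5 flasks and 23 arrays, with BY4739 in flask 0 and BY4741 in flasks 1 to 4. The deletion strains grew in rich medium with 200 µg/mL of the drug G418 and wild type in the same medium without it, so deletion and drug cannot be told apart. The labels do not say how many isolates stand behind a deletion strain, and 2 flasks of a strain shared a day. For single genes the p-values rest on the spread between arrays, with a flask correlation shared by all genes. For paralog pairs they rest on the spread between flasks. The shared day was not modelled.

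Ribosomal protein genes are among the most strongly transcribed genes of growing yeast and are regulated together. Rap1 marks their promoters, Fhl1 and Ifh1 drive them, Crf1 opposes Ifh1, and Sfp1 and Sch9 carry signals of the nutrient-sensing TOR pathway to them. Hmo1, a high-mobility-group protein, binds many of these promoters and the ribosomal DNA. In many stresses yeast lowers these messages together, and several members limit their own expression through their messenger RNA or its intron.

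Each value is a score, the authors' scaled log ratio of the later sample over t0. A negative score means a lower share of the RNA than at t0, a direction that the sample titles give as likely and that no stated dye formula settles. The log base is not known and every array was scaled to about the same spread, so scores are given as such and no fold change is drawn from them. Scores of different genes are compared as differences against t0, not as levels. The tests fitted every gene with the flask as a random block, adjusted p-values by Benjamini-Hochberg over all genes tested, and called an adjusted p below 0.05. In the text ± is a standard error for fitted scores, and "cold" in a test is the mean of t30 and t60 and "recovery" the mean of t90 and t120.

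The arrays held 5041 to 6158 genes each and 47 to 56 of the members, with a median of 55. RPS19A was measured on the fewest arrays, 120, and 17 members were measured on every array. Missing values made up 1.93% of the members' entries against 3.95% of all entries. Probe sequences were not used here, so signal shared by near-identical paralogs cannot be told apart from true agreement between them. In these bulk cultures fewer cells that make a message and less of the message per cell cannot be told apart.

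On most arrays taken in the cold the small subunit messages lay below their level before the shift. The median score over the members was below 0 on 65 of 81 arrays at 13 °C, including t15, and on 29 of 56 recovery arrays. The messages of the large subunit proteins had a similar sign. Their median had the same sign as that of the small subunit on 128 of 137 arrays, or 93.4%. Both medians come from the same array, so this is a description of the arrays.

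**Figure D1:**
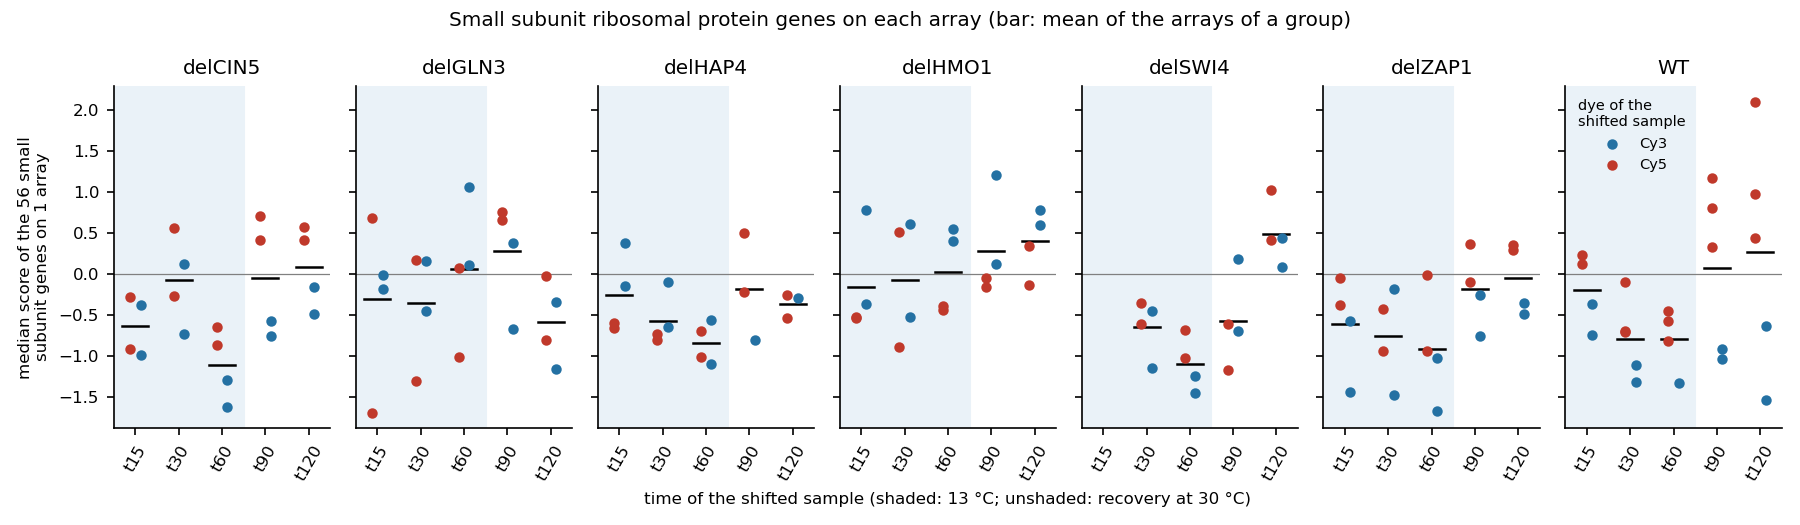
Median score of the small subunit members on each of the 137 arrays, by strain and time, 1 point per array, coloured by the dye of the later sample, with a bar for the mean and deletion strains left of wild type. The 81 arrays at 13 °C lie mostly below 0, with 65 below it, while recovery arrays scatter on both sides.

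The members' median was also set against the dye that carried the later sample. Over all strains in the cold it was below 0 on 35 of 42 arrays with that sample in Cy5 and on 30 of 39 with it in Cy3. In delHMO1 it was below 0 on 5 of 6 Cy5 arrays but above 0 on 4 of 6 Cy3 arrays. In delGLN3 it was below 0 on 3 of 6 arrays of each dye. In the other strains most cold arrays of both dyes were below 0. In recovery the members' median was above 0 on 19 of 30 Cy5 arrays, while it was below 0 on 18 of 26 Cy3 arrays. The strains did not all go the same way there. Recovery medians were higher in Cy5 in wild type, delCIN5, delGLN3, delHAP4 and delZAP1, and higher in Cy3 in delHMO1 and delSWI4. For the recovery values of the members the part played by the dye was not tested apart from the flask, since each flask of wild type used 1 dye throughout. The dye coefficient of the fit over all strains, which is the Cy5 minus Cy3 difference divided by 2, passed the threshold for 1 member, RPS7A, at 0.78 ± 0.18 (limma, adjusted p 0.0227), against 0.421% of all genes. The coefficient was above 0 for 43 of 56 members.

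Averaged over the strains, the cold response of the members was a broad fall with a few members as exceptions. The members' median was 0.00 in delGLN3 and −0.09 in delHMO1, so the average does not stand for every strain. With the 7 strains weighted equally, 43 of 55 members tested fell and 3 rose, while RPS16A could not be fitted. Among all 5819 genes tested 30.9% fell and 32.4% rose. The members' median score was −0.56, against −0.01 for all genes. The share of members that fell was 78.2%.

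RPS28B had the strongest fall. Its protein, Rps28, sits in the head of the subunit and is known to promote the decay of the RPS28B message itself. Its flask scores in the cold had a lowest value of −3.64, a median of −1.87 and a highest of 1.53, and 29 of 30 flasks were below 0. The fitted score was −1.79 ± 0.17 (limma, adjusted p 8.65e-17).

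RPS0A and RPS3 followed. Rps0 is needed to process the 20S precursor of 18S RNA, and Rps3 lines the entry channel for messenger RNA. For RPS0A the flask scores spanned −1.99 to 1.14 with a median of −0.97, 29 of 30 flasks were below 0, and the fitted score was −0.94 ± 0.11 (limma, adjusted p 2.77e-12). For RPS3 they spanned −2.53 to 1.15 with a median of −1.01, 27 of 30 flasks were below 0, and the fitted score was −1.07 ± 0.17 (limma, adjusted p 2.27e-08). Both were below 0 in almost every flask. RPS22A, which codes for a small protein of the body, had 24 of 30 flasks below 0, a range of −2.89 to 1.21 with a median of −1.03, and a fitted score of −0.94 ± 0.15 (limma, adjusted p 9.49e-08).

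In the cold 3 members rose. RPS14B, whose pre-messenger RNA is held back from splicing by the Rps14 protein, had flask scores of −0.98 at the lowest, 0.67 at the median and 4.27 at the highest, with 21 of 30 flasks above 0 and a fitted score of 0.73 ± 0.15 (limma, adjusted p 1.48e-05). RPS27B and RPS27A code for a zinc-binding protein of the platform. RPS27B spanned −1.34 to 2.70 with a median of 0.74 and 21 of 30 flasks above 0, and its fitted score was 0.70 ± 0.19 (limma, adjusted p 8.57e-04). RPS27A spanned −0.86 to 2.23 with a median of 0.40 and 20 of 30 flasks above 0, and its fitted score was 0.42 ± 0.15 (limma, adjusted p 0.0112). Each of the 3 had flasks below 0 as well. RPS27A no longer passed without delGLN3, without delHMO1 or with the sign of delHMO1 flask 4 turned, with adjusted p-values of up to 0.113 in limma. RPS14B was highest in delGLN3, where its mean cold score was 2.48, against 0.03 in wild type.

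**Figure D2:**
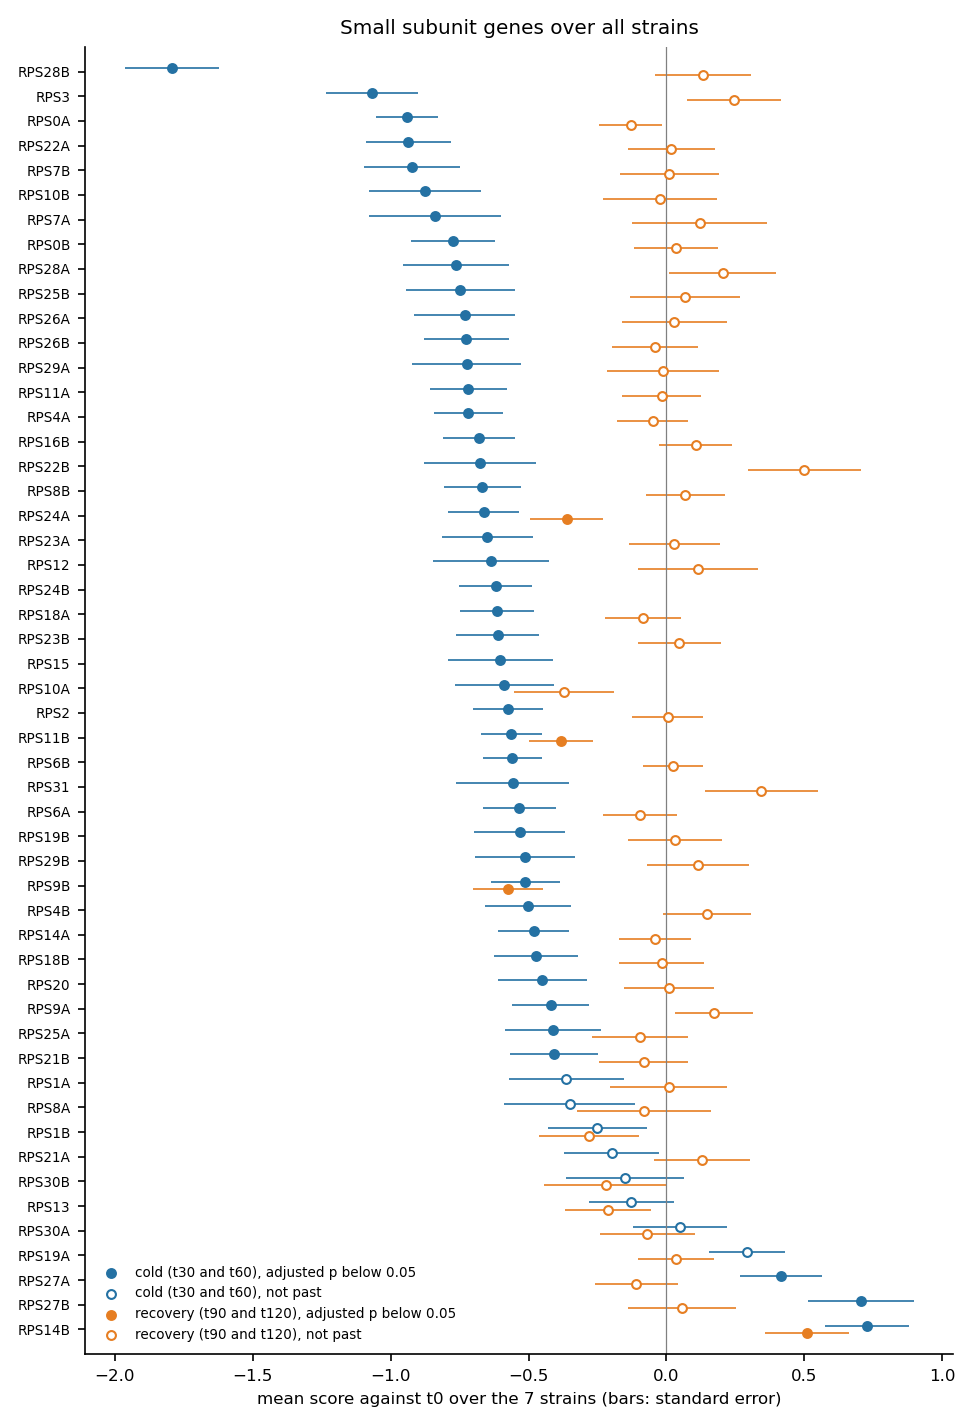
Fitted cold and recovery scores of small subunit members over all strains, 1 point per member shown with standard error bars, in order of the cold score. RPS28B lies lowest in the cold at −1.79, RPS14B and RPS27B highest at 0.73 and 0.70, and the recovery scores cluster around 0.

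Among the single-copy genes, which have no A or B paralog, 7 of 8 fell. Signal shared with other genes was not tested for them, since probe sequences were not used here. RPS2, next to Rps3 at the entry channel, had a fitted −0.58 ± 0.13, with 24 of 30 flasks below 0. RPS31, which codes for a fusion of ubiquitin with a small subunit protein, had −0.56 ± 0.20 and a wide flask range, from −2.70 to 3.58. RPS12 had −0.64 ± 0.21, RPS15 −0.60 ± 0.19 and RPS20 −0.45 ± 0.16, with 22 of 30, 23 of 29 and 22 of 30 flasks below 0. RPS20 no longer passed without wild type, RPS15 with the sign of delHMO1 flask 2 turned (adjusted p 0.105 in limma), and RPS31 without delHAP4 or without flask 3 of delZAP1. RPS13, the exception, had −0.13 ± 0.15 with 17 of 30 flasks below 0 (limma, adjusted p 0.481).

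Several paralogous members fell with little disagreement between flasks. RPS4A was below 0 in 29 of 30 flasks, with a range of −1.64 to 0.19 and a fitted −0.72 ± 0.13 (limma, adjusted p 3.55e-07). RPS11A was below 0 in 28 of 30, with a range of −1.76 to 0.27 and −0.72 ± 0.14 (limma, adjusted p 3.77e-06). RPS6B, of the pair for the TOR-dependent phosphoprotein Rps6, was below 0 in 26 of 30, with −0.56 ± 0.11 (limma, adjusted p 2.79e-06). In each of these 3 the highest flask was below 0.5. RPS7B and RPS7A had 25 and 26 of 30 flasks below 0, with fitted scores of −0.92 ± 0.17 and −0.84 ± 0.24. RPS23A and RPS23B, for the protein of the decoding centre, had −0.65 ± 0.16 and −0.61 ± 0.15. RPS10B had the most uneven fall of these, with a median of −1.24, a range of −2.93 to 1.68 and a fitted −0.88 ± 0.20.

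A total of 9 members did not pass in the cold, among them RPS19A, RPS1A, RPS8A, RPS1B, RPS21A, RPS13, RPS30B and RPS30A. RPS19A had a fitted score of 0.29 ± 0.14 (limma, adjusted p 0.0546) and was the member with mean scores above 0 in all 7 strains. By contrast, 19 members had mean scores below 0 in all 7 strains, and 21 in 6 of them. Of the proteins of the head, 19 of 21 tested fell and none rose, with a median of −0.59. Of the body and platform 24 of 34 fell and 3 rose, with a median of −0.56. The single-copy genes fell in 7 of 8 cases, and the paralogous ones in 36 of 47, with 3 that rose. The large subunit gave 63 of 75 lower and 2 higher, with a median of −0.62.

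Genes that act on the ribosomal protein genes or on the subunit's assembly were read from lists. Of 9 regulators tested 6 rose in the cold and none fell, against 32.4% and 30.9% of all genes. RRP7, which with Utp22 and Ifh1 forms a complex that links pre-ribosomal RNA processing to ribosomal protein genes, rose most, with a fitted score of 1.91 ± 0.15 (limma, adjusted p 2.67e-21). HMO1 had 1.14 ± 0.17, IFH1 0.99 ± 0.22, CRF1 0.97 ± 0.14, SFP1 0.59 ± 0.12 and STB3, a repressor tied to TOR signalling, 0.47 ± 0.11 (limma, all past the threshold). These fitted scores include the arrays of delHMO1, on which neither channel holds HMO1 message. SCH9, FHL1 and RAP1 did not pass, and UTP22 was not tested.

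All 13 tested factors for assembly and release of the small subunit rose in the cold, with a median of 1.17, and 11 of 13 fell in recovery, with a median of −0.71. Of all genes 32.4% rose in the cold and 14.5% fell in recovery. Among them NOB1, the endonuclease that finishes 18S RNA, had 1.86 ± 0.17, the kinase HRR25 1.64 ± 0.13, and PNO1, a partner of Nob1, 1.51 ± 0.16 in the cold and −1.18 ± 0.16 in recovery. ASC1, the ribosome-bound homolog of RACK1, was lower in both, with −0.52 ± 0.22 in the cold (limma, adjusted p 0.0287) and −0.58 ± 0.22 in recovery (adjusted p 0.0353). FAP7 was not tested.

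In recovery the members' scores were centred on 0. Of 53 members tested, 3 were lower and 1 higher, against 14.5% and 15.4% of all 5685 genes, and the members' median was 0.01, as was that of all genes. RPS9B, whose intron takes part in its own control, had flask scores from −2.0 to 2.19 with a median of −0.50, 20 of 29 flasks below 0, and a fitted score of −0.58 ± 0.13 (limma, adjusted p 0.000171). RPS14B was above 0 in 22 of 29 flasks and had 0.51 ± 0.15 (limma, adjusted p 0.00603). RPS11B had 18 of 28 flasks below 0 and −0.38 ± 0.12 (limma, adjusted p 0.00647), and RPS24A had 19 of 29 below 0 and −0.36 ± 0.13 (limma, adjusted p 0.0279). RPS9B was below 0 and RPS14B above 0 on average in all 7 strains. In wild type, however, the RPS9B recovery scores were 0.839, −0.085, −0.964, 0.117 and 0.083 in flasks 0 to 4, on both sides of 0. Of these 4 calls that of RPS9B passed under every alternative tried. Without delGLN3 the adjusted p in limma was 0.126 for RPS14B and 0.0906 for RPS11B, and RPS24A no longer passed under 12 of 46 alternatives, with an adjusted p of up to 0.176. Among these were the fits without flask 4 of wild type, delCIN5 or delHAP4, flask 2 of delGLN3 or delZAP1, flask 1 or 2 of delHMO1, or flask 1 of delSWI4. RPS15, RPS16A and RPS24B could not be fitted in recovery.

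In wild type alone the members' median score was −0.20 at t15, −0.77 at t30 and −0.91 at t60, against −0.01, 0.03 and 0.06 for all genes. The number of members above 0 was 22 of 56 at t15 and 3 of 56 at t30 and t60. The array medians were 0.13, 0.23, −0.74 and −0.36 in flasks 1 to 4 at t15, and −0.71, −0.10, −0.69, −1.32 and −1.11 in flasks 0 to 4 at t30. At t60 they were −0.45, −0.57, −0.82 and −1.32 in flasks 0 to 3. All wild type flasks were below 0 at t30 and t60, and the flasks were split at t15.

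Few members passed on their own in wild type. At t15, 1 member was lower and none higher, against 3.18% and 7.63% of all genes. At t30, 3 were lower and none higher, against 5.68% and 9.42%, and at t60, 6 lower and none higher, against 6.5% and 9.24%. The share of members called stayed near that of all genes or below it at t15 and t30 and was 10.7% at t60. With the flask as a fixed block the counts of lower members were 3, 8 and 14, and with the dye as a term 3, 9 and 17, at t15, t30 and t60. On the chips of 1 maker alone, which leaves out flasks 0 and 1, 1, 3 and 5 members were lower. Without flask 0 or flask 4 the t30 count was 1, and the t60 count was 3 without flask 1, 3 without flask 2 and 2 without flask 3. Shares of all genes under these settings are not given here, so the counts have no background beside them. RPS28B at all 3 times and RPS0A at t60 passed under every alternative tried.

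RPS28B was the lowest member at each of these times. Its wild type scores were −4.02, −2.89, −2.37 and −2.21 in flasks 1 to 4 at t15 (−2.84 ± 0.57, limma, adjusted p 0.00179). They were −2.92, −3.01, −3.28, −2.02 and −1.38 in flasks 0 to 4 at t30 (−2.52, limma, adjusted p 0.00148) and −2.67, −2.50, −3.53 and −2.35 in flasks 0 to 3 at t60 (−2.80, limma, adjusted p 0.00126). Every wild type flask was below −1 in the cold. In recovery the flasks parted, with 1.60, −1.32, 1.40, −1.08 and −3.12 at t90 and −1.05, 0.38, 0.73, −0.89 and −0.36 at t120.

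RPS26B and RPS7B passed at t30. Rps26 lies at the exit channel for messenger RNA, and Rps7 binds beside the platform. RPS26B had −2.60, −0.87, −0.94, −0.88 and −1.54 in flasks 0 to 4 (fitted −1.36, limma, adjusted p 0.0249). RPS7B had −2.12, −0.04, −0.96, −1.72 and −2.02 (fitted −1.37, limma, adjusted p 0.0297). All values of both were below 0, with flask 1 of RPS7B close to it.

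At t60 RPS7B, RPS0A and RPS9A were among those that passed, with RPS0B at −1.38 (limma, adjusted p 0.0393) and RPS11B at −1.11 (limma, adjusted p 0.0463). RPS0A had −1.80, −0.83, −1.64 and −1.38 in flasks 0 to 3 (fitted −1.50, limma, adjusted p 0.00446). RPS9A, which like RPS9B codes for a protein of the body beside the entry channel, had −1.10, −1.57, −1.50 and −1.84 (fitted −1.63, limma, adjusted p 0.0162). RPS7B had −0.94, −1.31, −1.06 and −1.88 (fitted −1.48, limma, adjusted p 0.0321). Every value of these genes was below 0 at t60.

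In wild type the members' scores were higher at t90 than at t60. The array medians went from −0.45 to 0.34, −0.57 to 0.80 and −0.82 to 1.17 in flasks 0 to 2, with the later sample in Cy5. In flask 3, with it in Cy3, the median went from −1.32 to −1.03, and flask 4 had no t60 array. The t90 minus t60 difference had a median of 0.83 for the members against −0.02 for all genes, with 50 of 56 members above 0. It passed for 9 members that rose and none that fell, which is 16.1% of the members, against 11.5% and 12.9% of all genes. The 9 were RPS7B at 3.06 (limma, adjusted p 0.00051), RPS0A at 2.04 (limma, adjusted p 0.000933), RPS22B at 2.37, RPS28B at 2.29, RPS8A at 2.06, RPS0B at 1.96, RPS4B at 1.60, RPS4A at 1.56 and RPS6B at 1.41. Rps6 is the target of a TOR-dependent phosphorylation. Without flask 2 the count of members that passed was 4, on the chips of 1 maker alone it was 4, and with the dye as a term it was 15. Shares of all genes under these alternatives are not given here.

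At t90 itself 1 member, RPS7B, was higher and none lower, against 3.42% and 2.19% of all genes. Its scores were 2.18, 3.16, 0.45 and 0.13 in flasks 0, 2, 3 and 4 (fitted 1.57, limma, adjusted p 0.0469), all above 0, and it no longer passed when any of flasks 0 to 3 was left out. Without flask 4, and likewise with the flask as a fixed block, 2 members passed. At t120 no member passed, against 2.69% of all genes, and at an unadjusted p below 0.05 there were 0 of 56 members against 15.9% of all genes. RPS25A, the highest by mean, had 0.57, 2.25, 3.38, −1.09 and −0.02 in flasks 0 to 4 (adjusted p 0.421 in limma), and RPS24A, the lowest, had −2.03, −0.74, 1.52, −1.04 and −1.13 (adjusted p 0.451 in limma).

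The array medians at t90 were 0.34, 0.80, 1.17, −1.03 and −0.90 in flasks 0 to 4, and at t120 they were 0.44, 0.98, 2.10, −1.54 and −0.63. Flasks 0 to 2 carried the later sample in Cy5 and were above 0 in all 6 recovery arrays, while flasks 3 and 4 carried it in Cy3 and were below 0 in all 4. Flasks 0 and 1 were also the ones hybridised to chips of another source. Flask, dye and, in part, chip source cannot be told apart in wild type recovery.

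The paralogs of a pair did not always move alike. The difference of A minus B within an array was taken over all cold times and averaged per flask. Among all 58 named A and B pairs of the table tested in the cold, 14 or 24.1% passed, and of the 24 small subunit pairs 6 passed, or 25%. In recovery 2 of 57 pairs or 3.51% passed, and 0 of the 24 small subunit pairs (limma). At an unadjusted p below 0.05 there were 3 of these 24 and 6 of the 57.

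RPS14 had the largest fitted difference. A minus B was −4.34 at the lowest flask, −1.14 at the median and 0.89 at the highest, and A was lower in 25 of 30 flasks, with a fitted difference of −1.22 ± 0.18 (limma, adjusted p 3.61e-06). Without delGLN3, whose flasks lay between −4.34 and −1.33, it was −0.91, smaller in size than that of RPS28. For RPS28 the difference was −0.23 at the lowest, 1.10 at the median and 3.30 at the highest flask, so that A was higher in 28 of 30, with a fitted 1.01 ± 0.14 (limma, adjusted p 3.61e-06). RPS19, a head protein whose human counterpart is mutated in Diamond-Blackfan anemia, had −1.55, 0.68 and 2.04, with A higher in 23 of 29 flasks and a fitted 0.75 ± 0.13 (limma, adjusted p 5.62e-05). In these 3 pairs the median flask was well away from 0.

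**Figure D3:**
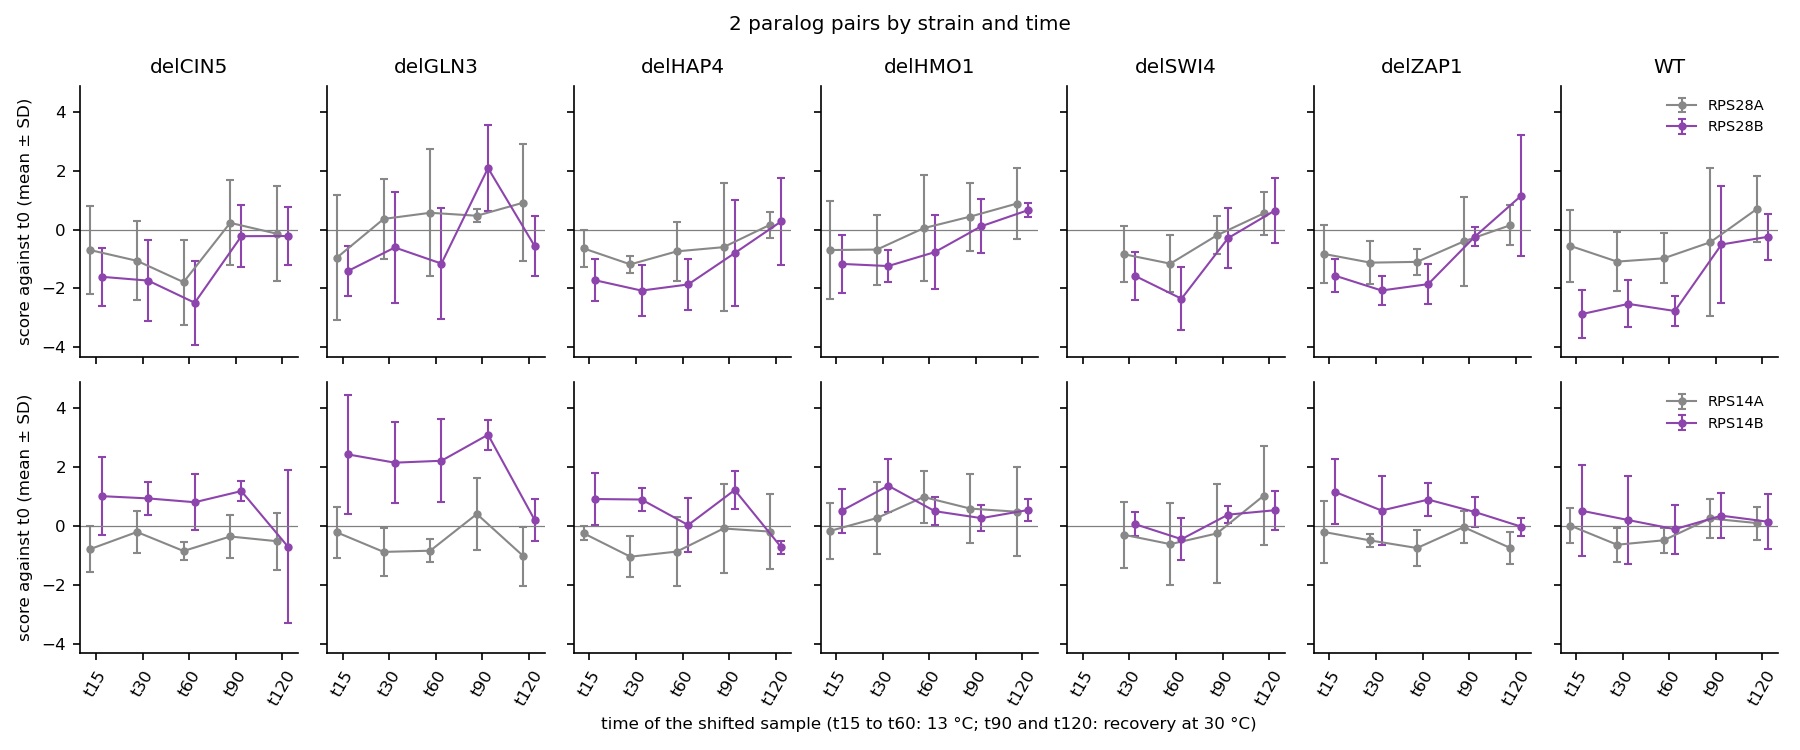
Mean score ± SD over arrays of RPS28A and RPS28B (top) and RPS14A and RPS14B (bottom) at each time, in each strain, with deletion strains left of wild type. RPS28B tends to lie below RPS28A and RPS14B above RPS14A in the cold, where the fitted A minus B differences are 1.01 and −1.22.

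The other 3 pairs that passed had smaller differences. RPS27 had −3.12, −0.29 and 1.85 at the lowest, median and highest flask and a fitted −0.45 ± 0.16 (limma, adjusted p 0.0418). RPS22 had −2.31, −0.31 and 1.01 and a fitted −0.39 ± 0.14 (limma, adjusted p 0.0457). These 3 calls did not hold under every alternative, and without flask 2 or flask 3 of delHMO1, or flask 2 of delZAP1, the count of pairs that passed was 3. In recovery RPS9 had 0.72 ± 0.29 (limma, adjusted p 0.211), RPS14 −0.54 ± 0.22 (limma, adjusted p 0.211) and RPS22 −0.52 ± 0.17 (limma, adjusted p 0.0961), with flasks from −2.37 to 2.76, −3.37 to 2.16 and −2.11 to 1.41. Leaving out flask 1 of delCIN5 gave 2 pairs past the threshold in recovery, and leaving out flask 3 of wild type gave 1.

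**Figure D4:**
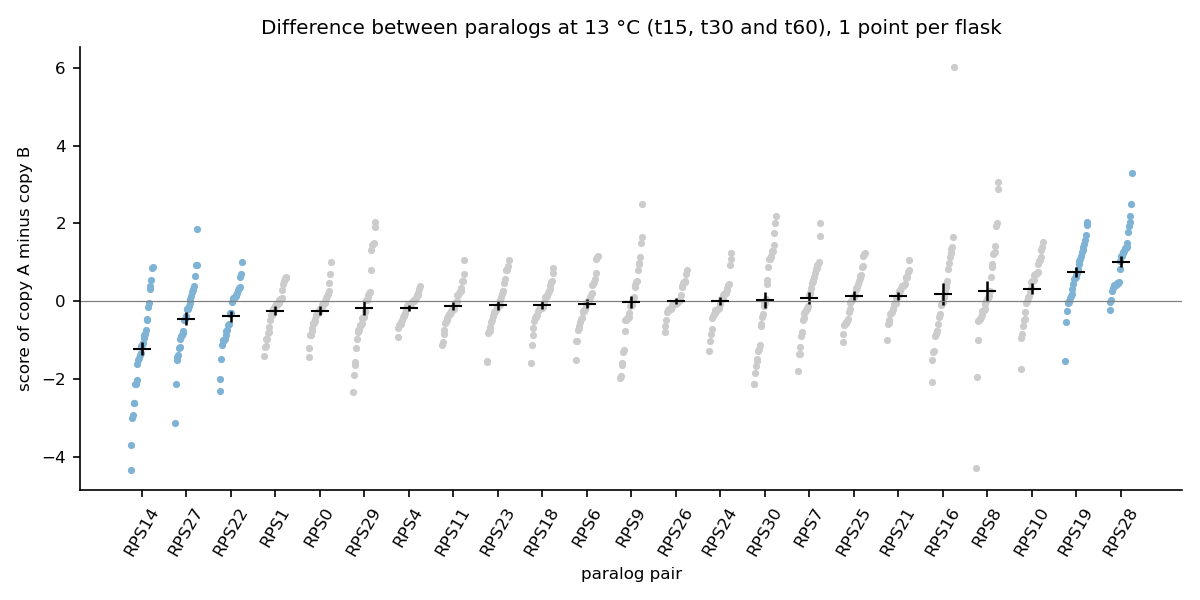
Difference of A minus B within arrays for paralog pairs of the small subunit in the cold, 1 point per flask with the fitted mean. RPS14 lies lowest at −1.22, RPS28 highest at 1.01 and RPS19 next at 0.75, while most pairs straddle 0.

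The strains were set in order by their cold scores as a description. The median over members of the mean cold score was 0.00 in delGLN3, −0.09 in delHMO1, −0.53 in delCIN5, −0.76 in delHAP4, −0.88 in delZAP1 and −0.88 in delSWI4, against −0.80 in wild type. The range of flask medians was −1.15 to 0.57 in delGLN3 and −0.62 to 0.35 in delHMO1, against −1.29 to −0.32 in wild type. The flasks of delGLN3 and delHMO1 thus overlapped those of wild type. Members with a mean below 0 numbered 28 in delGLN3, 34 in delHMO1, 50 in delCIN5, 52 in delHAP4, 53 in delSWI4 and 52 in delZAP1, against 51 of 56 in wild type.

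**Figure D5:**
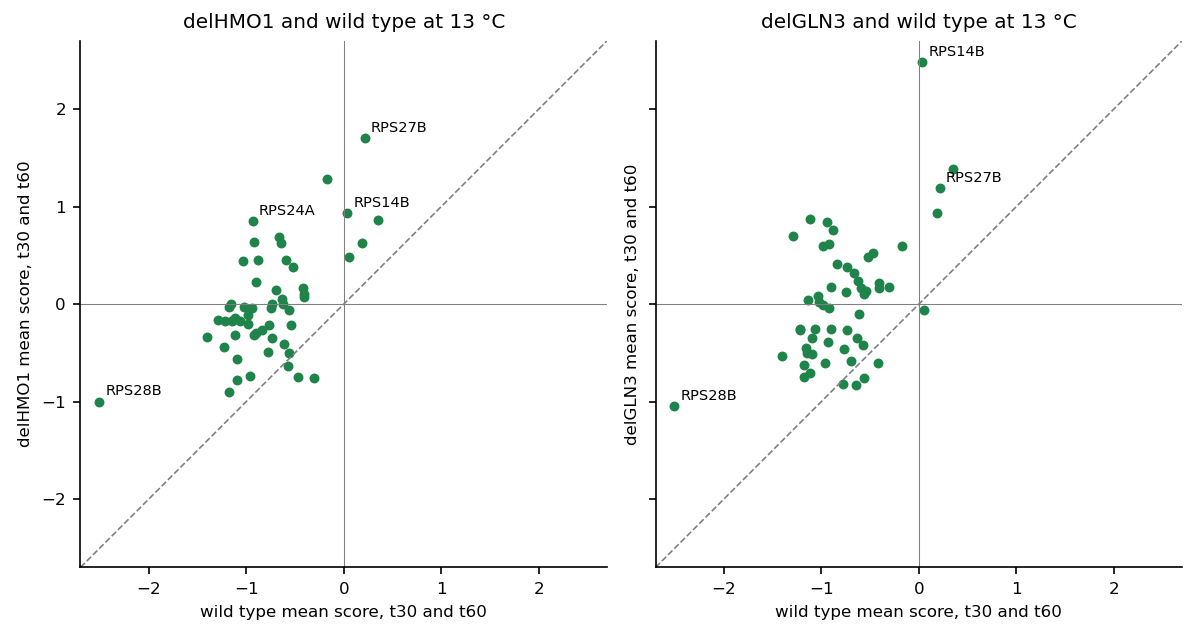
Mean cold score of each member in delHMO1 (left panel) and delGLN3 (right panel) on the vertical axis against its mean cold score in wild type on the horizontal axis, 1 point per member, with the line of equal scores dashed. Most points lie above the line, and the medians are −0.09 in delHMO1 and 0.00 in delGLN3, against −0.80 in wild type.

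None of the 12 comparisons of a deletion strain with wild type gave a member past the threshold. All of them share the wild type arrays. The calls over all genes were few as well, so a count of 0 is near the background. In the cold 0.0% of all genes passed in delCIN5, 0.348% in delGLN3, 0.201% in delHAP4, 0.0496% in delHMO1, 0.148% in delSWI4 and 0.0818% in delZAP1. In recovery it was 0.0649%, 0.848%, 0.0342%, 0.099%, 1.21% and 0.296% in the same order of strains. At an unadjusted p below 0.05 there were 2, 10, 1, 8, 0 and 1 members in the cold and 3, 7, 3, 5, 4 and 1 in recovery (limma), of 54 to 56 tested. Among all genes in the cold there were 442 of 6126 in delCIN5, 632 of 6040 in delGLN3 and 500 of 5975 in delHAP4. In delHMO1 it was 419 of 6053, in delSWI4 476 of 6085 and in delZAP1 427 of 6116. In recovery all genes gave 553 of 6163, 685 of 6017, 443 of 5855, 567 of 6058, 763 of 6038 and 602 of 6086.

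In delHMO1, the strain without the promoter-binding Hmo1, the median difference from wild type in the cold was 0.79, against −0.06 for all genes, with 54 of 56 members above 0 (limma). At an unadjusted p below 0.05 there were 8 members, or 14.3%, against 6.92% of all genes. The large subunit had a median difference of 0.81 over 77 genes, with 8 below 0. RPS28B, the lowest member in wild type in the cold, had −1.34, −1.53, −0.47 and −0.67 in flasks 1 to 4 of delHMO1. Wild type had −2.80, −2.76, −3.41, −2.19 and −1.38 in flasks 0 to 4, a difference of 1.66 (limma, adjusted p 0.578). Flask 2 of delHMO1 lay below flask 4 of wild type. The RPS28B difference was above 0 in every other deletion strain too, from 0.58 in delCIN5 to 1.75 in delGLN3. RPS24A, chosen after its values were seen, had 0.66, −0.61, 1.65 and 1.70 in delHMO1, against −0.96, −0.85, −1.30, −0.62 and −0.93 in wild type, a difference of 1.81 (limma, adjusted p 0.476). For RPS24A flask 2 of delHMO1 lay only just above the highest wild type flask, at −0.612 against −0.619. How many other genes had flasks of the strains apart by so little or more is not given here.

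Against t0, delHMO1 gave no member past the threshold in the cold or in recovery, against 0.33% and 0.033% of all genes. The members' medians were −0.13 and 0.30. At an unadjusted p below 0.05 there were 8 members in the cold, or 14.3% against 17.1% of all genes, and 3 in recovery, or 5.36% against 4.97%. With the flask as a fixed block 9 members passed in the cold, 6 higher (RPS14B, RPS19A, RPS24A, RPS27A, RPS27B, RPS30B) and 3 lower (RPS28B, RPS3, RPS7A). The share of all genes that passed under this setting is not given here, so the count has no background beside it. RPS27B had cold scores of 2.70, 0.78, 0.88 and 2.46 in flasks 1 to 4 of delHMO1 and RPS14B 1.00, 0.91, 1.24 and 0.59, all above 0, with fitted scores of 1.71 (limma, adjusted p 0.126) and 0.93 (limma, adjusted p 0.148). Without flask 3 of delHMO1, 2 members passed, RPS27B at 1.98 and RPS28B at −1.18 (limma). The same pair of genes passed without the t60 and t90 arrays of flask 3, which correlated with the profile of the other phase. For the t60 array this rank correlation was weak, at 0.119, against −0.056 with its own phase. For the t90 array the values were 0.488 and −0.229.

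The arrays of delHMO1 did not all run the same way. The members' medians from t15 to t120 were −0.52, 0.52, −0.39, −0.15 and 0.35 in flask 1 and −0.53, −0.89, −0.44, −0.05 and −0.13 in flask 2. They were −0.37, −0.53, 0.55, 0.12 and 0.60 in flask 3 and 0.78, 0.61, 0.40, 1.21 and 0.78 in flask 4. At t15 the arrays of flasks 3 and 4, which both carried the later sample in Cy3, had a Pearson r of −0.476 over genes, and genes are not independent replicates. At t30, t60, t90 and t120 the same flasks had r of 0.412, 0.43, 0.279 and 0.758. Flasks 2 and 4, of opposite dyes, had r of −0.49, −0.259, −0.016, −0.419 and −0.41 from t15 to t120. The direction of the delHMO1 arrays is not settled at t15, nor, for flasks 2 and 4, at the other times. The results of delHMO1 are also given with the sign of each of flasks 2, 3 and 4 turned. With the sign of flask 2 turned, 3 members passed as higher in delHMO1 than in wild type in the cold (RPS28B 2.43, RPS24A 2.11, RPS14A 1.58), the median difference was 1.19 and 55 of 56 members were above 0. With the sign of flask 3 turned none passed, the median was 0.70 and 56 members were above 0. With the sign of flask 4 turned none passed, the median was 0.63 and 52 members were above 0. Against t0 the cold median was 0.37 with flask 2 turned, −0.10 with flask 3 turned and −0.26 with flask 4 turned, and the recovery median 0.41, 0.07 and −0.12. Without flask 2 the cold median against t0 was 0.12. The recovery difference from wild type, 0.11 as deposited, was 0.32, −0.06 and −0.27 with flasks 2, 3 and 4 turned. The sign of these medians thus depends on single flasks.

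In delGLN3, which lacks a GATA factor that drives nitrogen-regulated genes, the median difference from wild type in the cold was 0.75, with 50 of 55 members above 0 (limma). At an unadjusted p below 0.05 there were 10 members, or 18.2%, against 10.5% of all genes. The large subunit had a median of 0.72 over 79 genes. RPS9A at 1.95 (limma, adjusted p 0.0765) and RPS14B at 2.25 (limma, adjusted p 0.0893) came nearest the threshold, and were chosen after their values were seen. RPS14B had cold scores of 1.26, 2.30, 4.27, 1.49 and 3.08 in flasks 1 to 5 of delGLN3, against −0.98, −0.67, 1.65, 0.38 and −0.20 in flasks 0 to 4 of wild type. Of the delGLN3 flasks, 1 and 4 lay below flask 2 of wild type and the others above all of wild type. RPS14B passed without flask 2 of wild type, and RPS9A with the dye as a term. A cold array of delGLN3, flask 2 at t60, correlated below 0 over genes with the median cold profile of the other strains and above 0 with their recovery profile, with a members' median of 1.06. Without this array 1 member, RPS14B, passed.

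The other 4 strains were nearer wild type in the cold. The median difference was 0.18 in delCIN5, 0.13 in delHAP4, 0.02 in delSWI4 and 0.03 in delZAP1. In recovery the medians were −0.09, −0.40, −0.21 and −0.15 in these strains, −0.27 in delGLN3 and 0.11 in delHMO1. In delHAP4, which lacks the activator subunit of a factor for respiratory genes, 8 of 54 members were above 0 in recovery, and without its flask 3 RPS1A passed at −3.26 (limma). The delHAP4 array of flask 4 at t90, 1 of 6 in recovery, correlated over genes with the cold profile of the other strains (rank correlation 0.617, against −0.168 with recovery), and without it the median was −0.42. Without flask 2 of wild type the median was −0.04, with 27 of 54 members above 0. Its arrays, and 12 of 16 of delSWI4, were on uncoated slides. Recovery medians in delCIN5 were above 0 on 4 of 4 arrays with the later sample in Cy5 and below 0 on 4 of 4 with it in Cy3, and those in delHMO1 went the other way, above 0 on 4 of 4 Cy3 arrays.

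The genes deleted served no check of the labels, since both channels of an array come from the same strain. HMO1 had scores of −1.0 to 2.02 on the 20 delHMO1 arrays (median 0.18), against −2.14 to 2.29 on the 23 wild type arrays.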

How the data were processed

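Total RNA of each flask was amplified, labelled with Cy3 or Cy5 and hybridised against t0 of the same flask, per the labels' protocols. The deposited values are a score per gene and array, a scaled log ratio made by the authors, with limma in the submitters' processing notes (version not given in the sources used here). The log base, dye formula and scaling step are not given in the sources used here. No genome or sequences were used.

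All 6178 frames were fitted with limma 3.58.1 in R 4.3.3: 1 mean per strain and time, flask as a random block (the labels tie the arrays of a flask to its shared t0), moderated variances and Benjamini-Hochberg adjustment, for genes with 2 or more flasks a group. The flask correlation over genes was 0.244 in wild type and 0.301 over all strains. Flask numbers shared by strains only name flasks. Symbols came from RefSeq names for 5674 frames. Paralog differences used the flask means and all 60 named pairs.

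The rule was to print values in every flask for the members of smallest adjusted p (up to 4 a direction and comparison). It also covered the highest and lowest member where none passed, and the 6 (cold) and 3 (recovery) pairs of largest difference. Such values are given in full for wild type at each time. For members over all strains and for pairs, flask ranges, medians or counts are printed instead, and not for every pair. For t90 minus t60 only fitted differences are printed. A further part of the rule, the pair of highest protein identity, could not be applied. Values of some members are counted but not reported here by name, and the figures by member leave them out. The members and lists were chosen with earlier results of these data known. Alternatives covered blocks, dye, chips, centring, filters and left-out flasks. On simulated data, at wild type t60 over 6172 genes, the fit recovered 12 of 100 genes shifted by a score of 1 and 77 of 100 shifted by 2. For delHMO1 minus wild type in the cold (6053 genes) it recovered 5 and 55 of 100, and over all strains in the cold (5819 genes) 99 and 100 of 100.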

Additional observations from a re-analysis of the deposited data

Results flagged for a closer look

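Of 41 sets of 4 or 5 values checked, 1 had a sample far from the others. They were 32 groups of arrays of a strain and time, by their members' median, and 9 single members at a wild type time. In delHMO1 at t15, the median score of the small subunit members was 0.776 in flask 4, while flasks 1 to 3 had −0.52, −0.53 and −0.37. The gap to the nearest of the others was 0.876 of the whole range. Chance flags about 1 in 20 such sets. The array correlated below 0 over genes with that of flask 3 at t15 and above 0 at the other times.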

How the results depend on the processing

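No called gene or pair changed direction under any alternative, but the delHMO1 medians against t0 did (0.37 in the cold with flask 2 turned, against −0.13 as deposited, and −0.12 in recovery with flask 4 turned, against 0.30), and several counts of members past the threshold moved, mainly in wild type, where the cause was not tested. In wild type, with main counts of 1, 3, 6 and 1 at t15, t30, t60 and t90 and 9 for t90 minus t60, the fixed replicate block gave 3, 8, 14 and 2 (12 for t90 minus t60), and a dye term gave 3 at t15, 9 at t30, 17 at t60 and 15 for t90 minus t60. Without the replicate block the counts were 5 at t30 and 0 at t90. A threshold of 0.01 gave 1 at t30, 2 at t60, 0 at t90 and 3 for t90 minus t60. Genes measured on every array, which tests fewer members, gave 3 at t60, 0 at t90, 5 for t90 minus t60, 14 over all strains in the cold and 1 in recovery. The chips of 1 maker, which leaves fewer flasks, gave 0 at t90 and 4 for t90 minus t60, and a chip term gave 2 at t90. Leaving out each flask gave 1 to 3 at t30, 2 to 4 at t60, 0 to 2 at t90, 4 to 10 for t90 minus t60, 44 to 47 over all strains in the cold and 3 to 5 in recovery. In delHMO1 in the cold, with 0 called, the dye term gave 1, the fixed replicate block 9, no replicate block 3, the fit without arrays resembling the other phase 2, and leaving out each flask in turn gave counts of 0 to 2. In delGLN3 minus wild type in the cold, 1 fit of all strains gave 2, the dye term 1, no replicate block 1, the fit without those arrays 1 and leaving out each flask in turn counts of 0 to 1, as it did in delHAP4 minus wild type in recovery. Turning the sign of delHMO1 flask 2 gave 3 in delHMO1 minus wild type in the cold. Of 6 paralog pairs in the cold, 2 passed with pairs measured on every array, and 3 with flask 2 turned, without wild type or with t30 and t60 only, against 3 to 6 without each flask, and in recovery 1 passed without delGLN3 and 0 to 2 without each flask. Of the 46 members called over all strains in the cold, 37 passed under every alternative. Shares of all genes under the alternatives are not given here, so changes in these counts are not set against a background. The number of arrays limits the precision, and the scores carry no depth.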
